A study of Mus musculus with 36 samples.

Results

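RAW 264.7 is a mouse macrophage-like cell line. Its cells were given melatonin 30 min before lipopolysaccharide (LPS, a bacterial cell wall component, 10 µg/mL) and collected 12 h later for RNA-seq. The libraries described here are the 12, of 36 in the series, that had LPS with melatonin at 4 doses (0.1, 1, 10 or 100 µM), in 3 libraries per dose; they were chosen by dose label alone, and expression was described across all genes as a slope on the log10 dose. LPS with 1 mM melatonin, LPS alone and solvent (3 libraries each) were kept out of the slope and are given only for comparison, as are 12 libraries with the same 4 doses and no LPS. All groups are wild type cells of the same line. Nothing in the labels states that replicates were grown as separate cultures. The p-values therefore cover only variation among the sequenced libraries, and that variation may be technical.

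Lipopolysaccharide is sensed through CD14 and Toll-like receptor 4, and activates NF-kB and interferon regulatory factors, which switch on cytokines, chemokines and enzymes such as cyclooxygenase 2. Melatonin is an indole hormone of the pineal gland with 2 known membrane receptors, encoded by Mtnr1a and Mtnr1b, and also has antioxidant actions at high concentration. Mtnr1a had 1 count and Mtnr1b 2 counts over all 36 libraries, with 1 count each in the 12.

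The 12 libraries held 5865231 to 7041163 counts, so 3 counts corresponded to 0.445 to 0.533 CPM (counts scaled to library size). Macrophage markers summed to 10723 to 15852 CPM, and markers of T and NK cells, B cells, granulocytes and mast cells, fibroblasts and epithelium, and endothelium each summed to at most 3.91 CPM. Cd3e, Cd4, Cd8a, Elane and Ly6g were at 0 in all 12. The macrophage sum was 10723 to 11454 CPM at 100 µM and 14971 to 15852 CPM at 0.1 µM. Lyz2 made up most of it, at 6305 to 10568 CPM. In bulk RNA of 1 cell line, fewer cells carrying these transcripts and less of them per cell cannot be told apart. There were 2 libraries without LPS that stood apart from their labels. On a scale where LPS alone is 0 and LPS with 1 mM is 100 (defined below), replicate 1 of 1 µM melatonin alone scored 119 and the other 1 µM libraries 102 to 103, while replicate 3 of 1 mM alone scored 103 and the others 116 to 120. Solvent, with neither agent, scored 98.0 ± 1.75 (SD, n = 3) on this scale. The 2 libraries that stood apart enter the slope under LPS only through the spread, and the counts without them are given.

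Melatonin between 0.1 and 100 µM gave a shallow, uneven gradient under LPS, most of it between 10 and 100 µM. The LPS response score used 1802 genes past the test and at least 2-fold apart between LPS and solvent. It was the least-squares slope, through the origin, of a library's log2 differences from solvent on the LPS minus solvent differences. It is given in percent, with solvent at 0 and LPS alone at 100, and genes with larger LPS differences weigh more. At 0.1 µM it was 85.2 ± 0.91 (SD, n = 3), followed by 84.5 ± 1.00 at 1 µM and 83.0 ± 0.54 at 10 µM. The 100 µM libraries scored 77.1 ± 0.32. The 3 lower doses overlapped or lay side by side, and all 3 libraries at 100 µM (76.9 to 77.5) lay below the other 9 (82.4 to 86.2). The score fell by 2.58 points per 10-fold dose over the 12 libraries (Pearson r = -0.889, two-sided permutation p = 8e-05, adjusted p = 0.00016 over 2 scores; Spearman rho = -0.885, permutation p = 0.00042). Leaving out any 2 of the 6 libraries at the end doses kept r between -0.824 and -0.923. Without the 100 µM group the fall was 1.10 points per 10-fold dose (r = -0.785, exact permutation p = 0.019, 9 libraries). LPS with 1 mM scored 56.8 ± 1.49.

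The step from 10 to 100 µM was 5.90 points, from 0.1 to 1 µM 0.725 points and from 1 to 10 µM 1.48 points. From 100 µM to 1 mM it was 20.3 points. The drop from LPS alone to the lowest dose was 14.8 points, larger than the whole difference of 8.10 points between 0.1 and 100 µM, but it shares the LPS libraries that define the score. The 821 genes raised by LPS went from 91.1 ± 0.55 at 0.1 µM to 82.9 ± 1.20 at 100 µM, and the 981 lowered by LPS from 79.6 ± 2.27 to 71.6 ± 1.74.

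The 1 mM profile score, over 634 genes past the test and at least 2-fold apart between LPS with 1 mM and LPS alone, was 28.2 ± 1.64 with 0.1 µM, 28.6 ± 0.74 with 1 µM and 29.2 ± 0.48 with 10 µM. With 100 µM it was 41.0 ± 1.61. These levels share the LPS and 1 mM libraries that chose the genes and set the scale, and differences among the 4 doses do not. The score was computed like the LPS response score, on the 1 mM minus LPS difference. It rose by 3.91 points per 10-fold dose (Pearson r = 0.802, permutation p = 0.00123, adjusted p = 0.00123; Spearman rho = 0.734, permutation p = 0.01). That relation rests on the 100 µM group: without it the slope was 0.515 (r = 0.431, exact permutation p = 0.25), while r stayed between 0.672 and 0.846 when any 2 of the 6 end libraries were left out. Each direction was also scored alone, on its own scale of 100. The 340 genes lower at 1 mM scored 14.5 at 0.1 µM and 29.0 at 100 µM, and had r = 0.845 with dose (permutation p = 0.00032). The 294 higher genes had 46.6, 47.1, 45.7 and 57.2 points in order of dose (r = 0.668, permutation p = 0.0137; Spearman rho = 0.453, permutation p = 0.149), so their rank relation did not pass.

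Across genes, the slope is the log2 change per 10-fold dose. With the spread estimated over all 36 libraries (edgeR quasi-likelihood test, Benjamini-Hochberg adjustment over 16988 genes), 3 genes passed an adjusted p of 0.05 (0.0177%), all rising, and 0 fell. At an unadjusted p under 0.05, 1074 genes (6.32%) passed. With the spread estimated in the 12 libraries alone, 91 of 14022 genes passed (0.649%): 19 rising (0.136%) and 72 falling (0.513%). Without replicate 2 of 100 µM the count was 57. The 3 genes of the first fit were among the 91, and all 91 had the same sign in the first fit. Without the 2 libraries that stood apart, the first fit called 26 genes, 13 in each direction, limma-voom on all 36 called 31 (7 rising, 24 falling) and DESeq2 31 (21 rising, 10 falling). Why the fits differ was not tested. The 36-library fit was the planned test of the slope, and the 12-library fit was an alternative to it that called more genes. Below, a gene is said to have risen or fallen in the 12-library fit unless the 36-library fit is named. Adjusted p are given for both fits or only for the fit named. In the 36-library fit 0 of the falling genes passed. Each ± beside a slope is an SE from the fit named with it. Of the 72 genes that fell there, 55 were also lower at 1 mM than in LPS alone (4.71% of all genes tested were) and 1 was higher; of the 19 that rose, 5 were higher at 1 mM (2.84% of all genes) and 4 lower. That comparison shares no library with the slope. Of the 72 falling genes 59, and of the 19 rising genes 15, averaged at least 100 CPM over the 12 libraries. The shares over all genes are therefore not matched for expression. The shares changed at 1 mM among genes that high were not computed.

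Secreted mediators and enzymes of inflammation were among the falling genes. Saa3 encodes an acute phase apolipoprotein of the serum amyloid family. It had 396, 401 and 398 CPM in the 0.1 µM libraries, 391, 398 and 405 in those with 1 µM, 289.9, 305 and 290.0 with 10 µM and 235, 223 and 242 with 100 µM. The 100 µM libraries lay below those at 10 µM, and those below the 0.1 and 1 µM libraries, which overlapped. The slope was -0.27 ± 0.03 with 12 libraries and -0.27 ± 0.07 with 36, with an adjusted p of 1.4e-07 in the 12-library fit and 0.11 in the 36-library fit. Beyond the line drawn through the 4 doses, 1 mM differed by a further -3.95 ± 0.26 (SE), adjusted p = 2.4e-14, the smallest p of that test; Saa3 had 589.6, 593 and 506 CPM in LPS alone and 8.27, 12.1 and 19.1 at 1 mM.

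Il1b (interleukin 1 beta, a pyrogenic cytokine) had 92.6, 92.7 and 92.5 CPM in the 0.1 µM libraries, 115, 158 and 147 in those with 1 µM, 78.2, 93.6 and 97.3 with 10 µM and 41.7, 46.6 and 50.9 with 100 µM. The 1 µM libraries were the highest and the 100 µM libraries the lowest, with no overlap between those groups. Its slope was -0.36 ± 0.05 with 12 libraries and -0.36 ± 0.15 with 36, adjusted p = 2.9e-05 in the 12-library fit and 0.73 in the 36-library fit; without the 100 µM group it was -0.02 with 36. Il1b had 324, 267 and 307 CPM in LPS alone and 1.68, 5.75 and 10.8 at 1 mM.

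Ptgs2 (cyclooxygenase 2, which makes the prostaglandin precursor) had 424, 442 and 441 CPM in the 0.1 µM libraries, 450.2, 377 and 450.2 in those with 1 µM, 378, 382 and 391 with 10 µM and 228, 241 and 268 with 100 µM. The 100 µM libraries lay apart below the others. The slope was -0.26 ± 0.03 with 12 libraries and -0.26 ± 0.11 with 36, adjusted p = 9.8e-07 in the 12-library fit and 0.73 in the 36-library fit. Ccl3 (MIP-1 alpha, a chemokine) had 5164, 5071 and 4898 CPM in the 0.1 µM libraries, 5221, 4984 and 4958 in those with 1 µM, 4717, 4835 and 4440.1 with 10 µM and 3835, 3601 and 3969.7 with 100 µM. Its slope was -0.13 ± 0.01 with 12 libraries and -0.13 ± 0.04 with 36, adjusted p = 1.5e-06 and 0.22 in the same order. Cxcl2 (a neutrophil chemokine) had 1434, 1458 and 1348 CPM in the 0.1 µM libraries, 1432, 1434 and 1253 in those with 1 µM, 1275, 1299 and 1341 with 10 µM and 985, 932 and 959 with 100 µM. Its slope was -0.17 ± 0.02 with 12 libraries and -0.18 ± 0.07 with 36, with an adjusted p of 2.3e-06 in the 12-library fit and 0.73 in the other. For both chemokines the 100 µM libraries lay below the other 9. Tnf, the cytokine TNF, fell as well in the 12-library fit, from 1353 to 1018 CPM on average (adjusted p = 3.3e-04, and 0.51 in the 36-library fit).

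**Figure D1:**
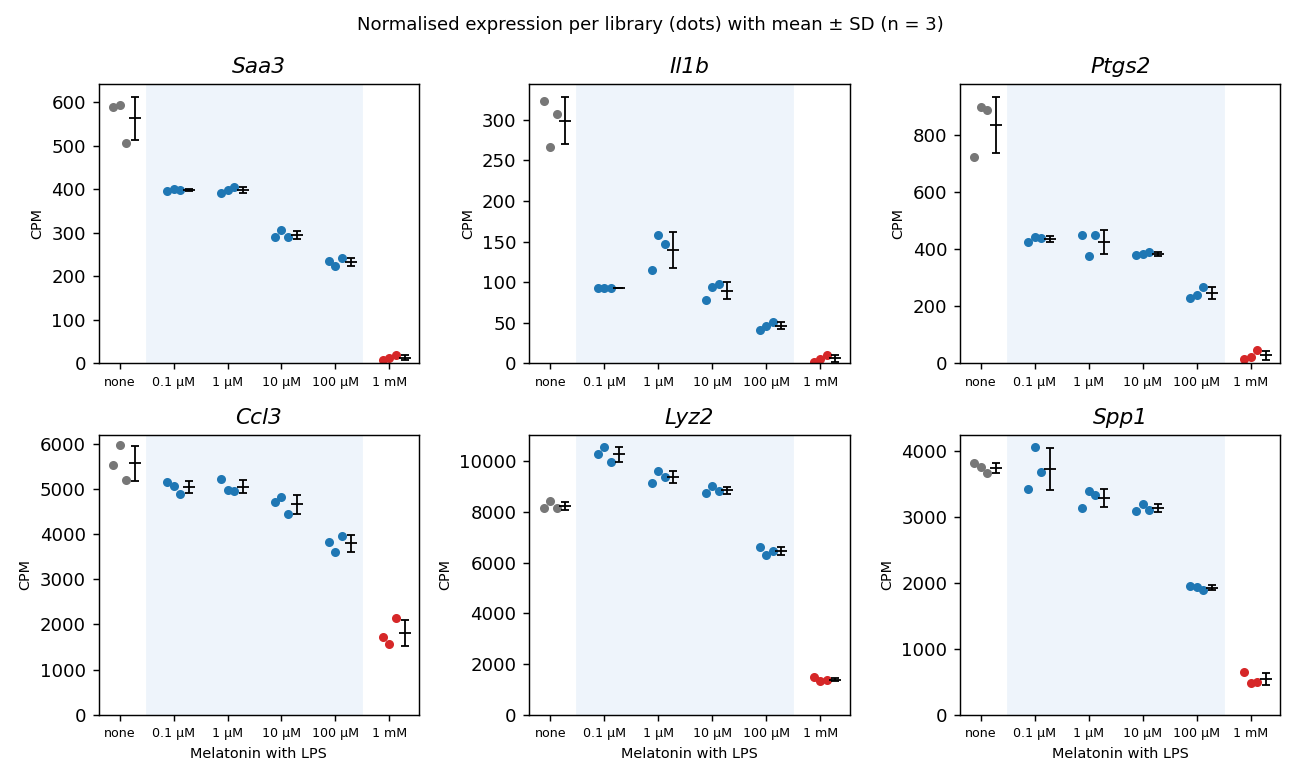
CPM per library (dots) and mean ± SD (bars, n = 3) of 6 genes with a falling slope in the 12-library fit, by melatonin given with LPS; linear axes start at 0. Shading marks the 4 doses of the slope; 1 mM lies below them for all 6 genes.

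Of 23 tested cytokine and chemokine genes, 18 had a slope below 0, with a median of -0.13 (all genes 0.00). In the 12-library fit 8 fell and 0 rose. There 0.513% of all genes fell, and 2.92% of the 2019 genes averaging at least 100 CPM. In the 36-library fit 0 passed. Of 17 inflammatory enzymes and effectors, 16 sloped below 0 (median -0.14) and 5 fell in the 12-library fit, with 0 in the other. They included Acod1, the itaconate-producing enzyme, and Sod2, mitochondrial superoxide dismutase. Their slopes were -0.10 and -0.13, with adjusted p of 0.0051 and 0.0039 in the 12-library fit. Nos2 (inducible nitric oxide synthase) had a slope of -0.04 ± 0.11 with 12 libraries and -0.04 ± 0.19 with 36, adjusted p = 0.97 in the 12-library fit, with group means of 16.7, 17.0, 29.3 and 12.6 CPM. Without the 100 µM group, 2 genes of each list fell in the 12-library fit. The NF-kB and MAPK regulators had 0 called genes of 30 in either fit. Nfkbia, an NF-kB inhibitor, had a slope of -0.04 ± 0.03 with 12 libraries and -0.05 ± 0.05 with 36 and Tnfaip3, a deubiquitinase that restrains NF-kB, 0.05 ± 0.05 with 12 libraries and 0.05 ± 0.08 with 36.

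Macrophage surface and granule genes also fell in the 12-library fit, 6 of 24 tested. There 0.513% of all genes fell, and 2.92% of those averaging at least 100 CPM. In the 36-library fit 0 fell, and 1 fell in the 12-library fit without the 100 µM group. Lyz2 (lysozyme) had 10301, 10568 and 9969 CPM in the 0.1 µM libraries, 9125, 9599.7 and 9398 in those with 1 µM, 8739, 9021 and 8818 with 10 µM and 6632, 6305 and 6444 with 100 µM. Its groups fell step by step without overlap. Its slope was -0.21 ± 0.01 with 12 libraries and -0.21 ± 0.10 with 36, adjusted p = 2.3e-13 in the 12-library fit and 0.74 in the 36-library fit. Spp1 (osteopontin) had 3428, 4061 and 3677 CPM in the 0.1 µM libraries, 3126, 3394 and 3337 in those with 1 µM, 3087, 3196 and 3109 with 10 µM and 1958, 1939 and 1886 with 100 µM; its slope was -0.29 ± 0.02 with 12 libraries and -0.29 ± 0.09 with 36, adjusted p = 6.4e-13 and 0.51. Other falling genes were Fcgr2b (an inhibitory Fc receptor, slope -0.26, adjusted p = 1.4e-04), Msr1 (a scavenger receptor, -0.26, adjusted p = 1.7e-05) and Cybb (the NADPH oxidase subunit gp91phox, -0.13, adjusted p = 1.0e-04), all in that fit. Csf1r, the receptor of macrophage colony stimulating factor and a marker of the lineage, stayed between 1912 and 2510 CPM in the 12 libraries. Lyz2, Spp1, Csf1r and, further on, Ank, Gm29216 and Gm10800 were chosen after their values were seen.

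Further falling genes varied in how they met the 1 mM level. Clec4e (Mincle, a receptor for mycobacterial glycolipid) had 1236, 1346 and 1167 CPM in the 0.1 µM libraries, 993, 1082 and 1106 in those with 1 µM, 903, 947 and 1000.1 with 10 µM and 867, 861 and 920.2 with 100 µM. Its slope was -0.16 ± 0.02 with 12 libraries and -0.17 ± 0.05 with 36, adjusted p = 1.7e-05 in the 12-library fit and 0.46 in the 36-library fit, and it stepped by -2.62 ± 0.19 (SE), adjusted p = 4.0e-13 beyond the line at 1 mM. Srgn (serglycin, a granule proteoglycan) had 596, 651 and 536 CPM in the 0.1 µM libraries, 686, 644 and 652 in those with 1 µM, 527, 539 and 498 with 10 µM and 395, 425 and 386 with 100 µM. Its slope was -0.20 ± 0.03 with 12 libraries and -0.20 ± 0.05 with 36 (adjusted p = 1.5e-05 and 0.11), and at 1 mM it was -0.17 off the line, which did not pass the test (adjusted p = 0.76). Srgn also fell with dose without LPS (slope -0.26, adjusted p = 0.0027, 36-library fit). Slfn4, an interferon-inducible Schlafen gene, had the smallest unadjusted p among falling genes of the 36-library fit. It had 1101, 1118 and 1032 CPM in the 0.1 µM libraries, 813, 897 and 977 in those with 1 µM, 936, 872 and 968 with 10 µM and 658, 610.0 and 633 with 100 µM. The adjusted p was 3.1e-07 in the 12-library fit and 0.076 in the other. Csf3 (granulocyte colony stimulating factor) was highest at 1 µM, as Il1b was, with means of 80.0, 114, 88.3 and 48.4 CPM from 0.1 to 100 µM (adjusted p = 0.0072 in the 12-library fit). Il6 was under 10 CPM in every library of the 12, with 0 counts in 1 library at 100 µM and in all 3 at 1 mM, and its slope did not pass (adjusted p = 0.67). In the interferon response list, 26 of 36 genes sloped below 0 (median -0.04) and 1 fell in the 12-library fit; the median was 0.06 without the 100 µM group.

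The 12-library fit had 43 of its 72 falling genes in RefSeq promoter windows (GRCm38.p6, 250 bases before to 50 after the start). The NF-kB consensus, searched on both strands, was in 4 of these genes (9.30%) and in 5.14% of the 27025 genes with a window. The letters TGANTCA (both strands; an AP-1 motif) were in 7 genes (16.3%) against 8.97%. Of the 19 rising genes, 9 had a window; 1 of them (11.1%) held the NF-kB consensus and 0 held TGANTCA. These shares are descriptions and were not tested. The windows below are from falling genes that hold a match, shown in capitals (NF-kB consensus in Cxcl2 and Sod2, TGANTCA in Slfn4). A match is not a site of binding.
Cxcl2, chr5:90903649-90903948 (+): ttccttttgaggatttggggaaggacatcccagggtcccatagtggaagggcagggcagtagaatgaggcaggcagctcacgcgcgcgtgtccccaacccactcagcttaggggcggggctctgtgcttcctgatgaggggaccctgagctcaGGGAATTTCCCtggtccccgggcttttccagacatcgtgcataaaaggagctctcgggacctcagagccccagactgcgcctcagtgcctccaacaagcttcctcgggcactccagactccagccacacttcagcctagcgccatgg
Sod2, chr17:13007589-13007888 (+): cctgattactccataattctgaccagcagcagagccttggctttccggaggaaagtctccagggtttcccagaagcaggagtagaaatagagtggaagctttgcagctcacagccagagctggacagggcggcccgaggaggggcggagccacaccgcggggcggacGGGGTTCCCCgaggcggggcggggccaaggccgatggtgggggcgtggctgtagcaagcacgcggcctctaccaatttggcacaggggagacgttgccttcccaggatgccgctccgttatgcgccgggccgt
Slfn4, chr11:83174936-83175235 (+): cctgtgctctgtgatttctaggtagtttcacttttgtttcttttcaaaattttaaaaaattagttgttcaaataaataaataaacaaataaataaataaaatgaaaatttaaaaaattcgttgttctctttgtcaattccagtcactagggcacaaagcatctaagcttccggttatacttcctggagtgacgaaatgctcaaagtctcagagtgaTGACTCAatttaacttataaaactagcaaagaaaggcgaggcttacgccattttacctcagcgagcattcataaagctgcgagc

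Cell division genes were among those that rose. Racgap1 (a cytokinesis GTPase activator) had 16.2, 8.13 and 12.1 CPM in the 0.1 µM libraries, 14.9, 21.1 and 19.8 in those with 1 µM, 23.3, 31.3 and 30.2 with 10 µM and 27.1, 25.5 and 31.5 with 100 µM. The 100 µM libraries lay above all those at 0.1 µM. Racgap1 averaged 21.0 CPM in LPS alone, above its 0.1 µM mean of 12.1 CPM, and 21.2 CPM in LPS with 1 mM. It rose with a slope of 0.42 ± 0.08 in the 36-library fit, adjusted p = 0.018; leaving out 1 of 4 libraries (either of 2 at 100 µM or 2 at 0.1 µM) ended the call, with adjusted p of 0.062 to 0.157. Other settings that ended it were limma-voom (0.226), numeric dose in the 12 libraries (0.067), linear dose (0.275), and leaving out the 10 µM (0.051) or 0.1 µM group (0.874). Cenpf (a kinetochore protein) had 124, 111 and 127 CPM in the 0.1 µM libraries, 124, 185 and 142 in those with 1 µM, 159, 174 and 175 with 10 µM and 195, 175 and 190.3 with 100 µM. It rose with a slope of 0.21 ± 0.04, adjusted p = 0.044 in the 36-library fit; leaving out any of the 12 libraries other than replicates 1 and 2 of 1 µM ended the call (adjusted p = 0.053 to 0.191), as did DESeq2 size factors (0.056), linear dose (0.206) and leaving out the 0.1 µM (0.874), 10 µM (0.051) or 100 µM group (0.373). Of 25 mitosis genes, 22 had a slope above 0 and 3 below (12.0%, against 48.3% of all genes), with a median of 0.08. In the 36-library fit 1 rose (0.0177% of all genes did). In the 12-library fit 3 rose (0.136% of all genes, 0.743% of those averaging at least 100 CPM) and 0 fell. The 3 were Cenpf, Top2a (topoisomerase II alpha) and Mki67 (Ki-67), and 0 passed in that fit without the 0.1 µM or the 100 µM group. DNA replication genes had a median slope of 0.11 and 0 called of 29.

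Nfatc1, a calcium-regulated transcription factor, rose in the 12-library fit and then dropped at 1 mM. It had 335, 391 and 393 CPM in the 0.1 µM libraries, 362, 428 and 507 in those with 1 µM, 451, 455 and 504 with 10 µM and 664, 717 and 639 with 100 µM. The 100 µM libraries lay above all the others. The slope was 0.27 ± 0.03 with 12 libraries and 0.27 ± 0.06 with 36, adjusted p = 2.1e-06 in the 12-library fit and 0.076 in the 36-library fit. It had 149.5, 128 and 98.1 CPM at 1 mM, a step of -2.59 ± 0.21 (SE), adjusted p = 9.4e-12. Ank (a transporter that exports pyrophosphate and citrate) had 187, 197 and 203 CPM in the 0.1 µM libraries, 204, 194 and 166 in those with 1 µM, 199, 213 and 207 with 10 µM and 354, 326 and 323 with 100 µM. Only its 100 µM libraries stood above the rest. Its slope was 0.25 ± 0.03 with 12 libraries and 0.25 ± 0.07 with 36, adjusted p = 1.7e-05 in the 12-library fit and 0.22 in the 36-library fit.

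**Figure D2:**
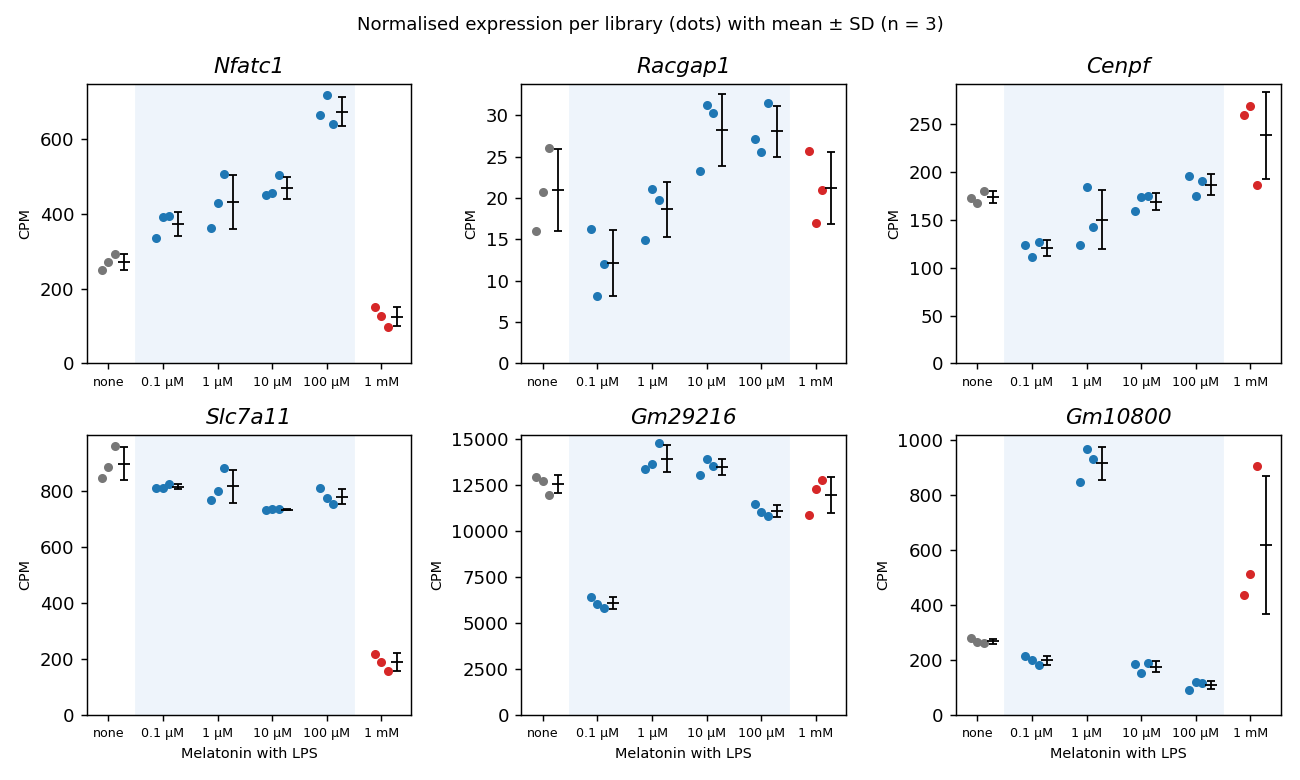
CPM per library (dots) and mean ± SD (bars, n = 3) of 6 genes with other dose patterns, by melatonin given with LPS; linear axes start at 0. Nfatc1, Racgap1 and Cenpf slope upward over the shaded doses, Slc7a11 changes at 1 mM, and Gm29216 and Gm10800 stand apart at a single dose.

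At 1 mM, 430 of 16988 genes (2.53%) lay off the line extrapolated from the 4 doses, 95 above (0.559%) and 335 below (1.97%; edgeR quasi-likelihood, 36 libraries). Without replicate 1 of LPS with 100 µM the count was 264, and without replicate 2 it was 277. The line is straight in log10 dose, so a curve that steepens with dose would also lie off it. A step at 1 mM names only this distance, and an abrupt change was not tested. Slc7a11 (the cystine importer) had 810.2, 809.6 and 823 CPM in the 0.1 µM libraries, 768, 799 and 880.4 in those with 1 µM, 729.7, 733 and 735 with 10 µM and 809, 773 and 754 with 100 µM. Its 4 groups stayed between 729.7 and 880.4 CPM and it had 218, 189.5 and 155 CPM at 1 mM, a step of -1.98 ± 0.21 (SE), adjusted p = 2.2e-08. Hmox1 (heme oxygenase 1) went from 162 CPM at 100 µM to 38.2 CPM at 1 mM, a step of -2.13 ± 0.28 (SE), adjusted p = 1.8e-06. Myc, a growth-promoting transcription factor, was at 97.3 CPM at 100 µM and 20.4 CPM at 1 mM, a step of -2.28 ± 0.37 (SE), adjusted p = 6.8e-05. Of the 30 NRF2 and antioxidant genes, 8 stepped down at 1 mM and 0 had a slope that passed in either fit.

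Genes that changed at 1 mM leaned the same way below it. Of 800 genes lower at 1 mM than in LPS alone (4.71% of genes tested), 594 had a slope below 0 (74.2%), with a median of -0.04. The share below 0 was 48.3% of all tested genes and 60.4% of those averaging at least 100 CPM. In the 12-library fit 55 of the 800 fell and 4 rose. The median log2 change was -0.01 from 0.1 to 1 µM, -0.03 from 1 to 10 µM and -0.07 from 10 to 100 µM. Of 482 genes higher at 1 mM (2.84%), 35.5% had a slope below 0, with a median of 0.04, and this median was -0.00481 without the 100 µM group.

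**Figure D3:**
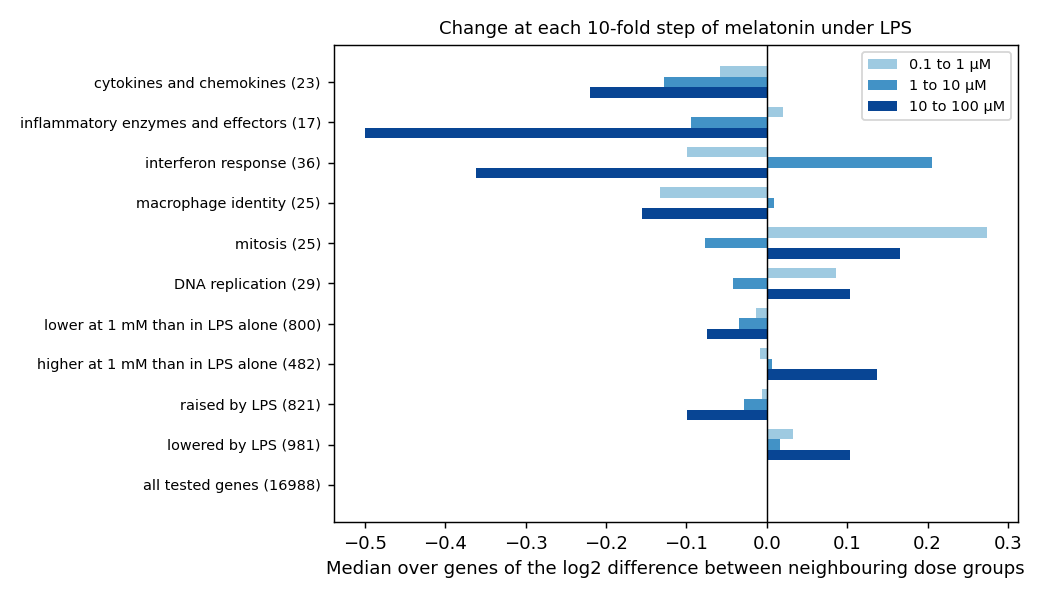
Bars give the median log2 difference between neighbouring dose groups under LPS for gene lists (number of tested genes in brackets), with 1 color per 10-fold step. The 10 to 100 µM step is the longest bar for the inflammatory enzymes and for the genes lower at 1 mM.

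Some differences among the 4 doses were not graded. The joint test of any difference called 19 genes in the 36-library fit (0.112%) and 125 in the 12-library fit (0.891%). Of the 19, 15 were predicted genes, pseudogenes or CT010467.1, which is annotated as rRNA. With LPS, CT010467.1 averaged 4380, 1375, 2220 and 2511 CPM from 0.1 to 100 µM. All rRNA-annotated genes together took up 0.410%, 0.130%, 0.215% and 0.242% of the libraries in the same order. The dose groups thus also differed in rRNA content, and the cause was not tested. Gm29216, an unprocessed pseudogene at chr1:24615706-24616197 (mm10), had 6399, 6034 and 5776 CPM in the 0.1 µM libraries, 13355, 13662 and 14767 in those with 1 µM, 13027, 13908 and 13521 with 10 µM and 11435, 11012 and 10821 with 100 µM. It was low at 0.1 µM alone, so its rising slope (0.26 ± 0.04, adjusted p = 0.013 in the 36-library fit) became -0.16 without that dose. Leaving out replicate 1 of 100 µM or replicate 2 of 0.1 µM also ended its call (adjusted p = 0.068 and 0.057), as did leaving out the 10 µM group (0.051), linear dose (0.952) and dose as a number in 12 libraries (0.319). Gm10800, a predicted gene at chr2:98666547-98667301, had 214, 199 and 180.1 CPM in the 0.1 µM libraries, 848, 965 and 929 in those with 1 µM, 183, 151 and 189 with 10 µM and 91.1, 118 and 116 with 100 µM. All 3 libraries at 1 µM were above every library of the other doses. Gm21738 and others like it showed the same spike. These are repeat-like genes: in 10 of them 36.2% to 94.4% of 31-base words of each gene occur in another of them, so part of their reads cannot be assigned to 1 gene. Among the 10, Gm10717, Gm10800, Gm11168, Gm21738 and Gm26870 were counted in the 72 falling genes of the 12-library fit. The 60-base run below is shared by 8 of the 10.
shared run: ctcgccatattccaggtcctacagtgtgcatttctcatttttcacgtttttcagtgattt

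Without LPS, the same 4 doses gave 134 genes with a slope past the threshold (0.789%), 57 rising (0.336%) and 77 falling (0.453%), and 397 without the 2 libraries that stood apart. Leaving out 1 library gave 50 (without replicate 3 of 0.1 µM) to 319 (without replicate 1 of 1 µM). The slopes with and without LPS differed for 18 genes (0.106%), of which 5 were higher (0.0294%) and 13 lower (0.0765%) with LPS. All 10 repeat-like genes were among those 13, and also among the 57 rising without LPS. They share sequence and are not separate observations. Without LPS, Saa3, Ptgs2 and Il1b had slopes of -0.10, -0.22 and -0.53, which did not pass. Racgap1 had a slope of -0.06 without LPS, and the difference was 0.49 (adjusted p = 0.034, edgeR quasi-likelihood). Saa3, Ptgs2 and Il1b did not pass that test of the difference (adjusted p = 0.78, 1.00 and 1.00).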

How the data were processed

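Raw counts per gene for 36 libraries were used as the authors deposited them; per the submitters' processing notes they used cutadapt, featureCounts and mm10. The aligner, annotation, strand setting and versions are not given in the sources used here. The deposited FPKM values served only for gene symbols and biotypes. Gene positions come from GENCODE M21, which matched 99.8% of 53465 gene identifiers.

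Counts were analysed with edgeR 4.0.16 (R 4.3.3): TMM scaling, a low-count filter over the 12 groups and a quasi-likelihood fit with 1 mean per group (24 residual degrees of freedom). The trend was the linear contrast of 4 dose means on log10 dose. The step at 1 mM was 1 mM minus the value extrapolated from that line. Adjusted p-values are Benjamini-Hochberg over all genes tested. CPM are TMM-scaled. A fit of the 12 libraries, DESeq2 1.42.0 and limma 3.58.1 were alternatives. The score genes were chosen on libraries outside the 12, and permutations (100000, two-sided; exact for 9 libraries) reassigned doses. The fits were also run on simulated counts with independent noise in each gene and no group differences other than the added slopes. That run does not bear on other differences between the real dose groups.

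The 12 libraries held 5865231 to 7041163 counts. The median SE of a slope was 0.05 for genes of at least 100 CPM, 0.10 from 10 to 100 CPM and 0.45 under 10 CPM. In no pair of replicates did counts agree within sampling noise (chi-square over its degrees of freedom, 8.95 to 12.9). Named genes were those past the threshold or with the smallest p in the trend, largest at 1 mM, a list of inflammatory and redox genes, the smallest p per list, and the smallest p in the step and interaction tests; genes with the smallest p in the 12-library fit and in the joint test were added after their values were seen. The members and lists were chosen with earlier results of these data known.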

Additional observations from a re-analysis of the deposited data

Results flagged for a closer look

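The slope on dose differed between the libraries with and without LPS by a test of the difference itself (edgeR quasi-likelihood, adjusted over 16988 genes) for these named genes. Among protein-coding genes, the slope with LPS minus the slope without LPS was 0.49 for Racgap1 (adjusted p = 0.034), 0.44 for Pigs, a subunit of the enzyme that attaches GPI anchors (0.023), 0.35 for Elovl6, a fatty acid elongase (0.021), and -0.32 for Flna, the actin crosslinker filamin A (0.0013). Elovl6 fell (-0.30, adjusted p = 6.5e-04) and Flna rose (0.21, adjusted p = 0.0018) with dose in the libraries without LPS; with LPS their slopes of 0.06 and -0.11 did not pass. Without the 2 libraries that stood apart, the differences were 0.50, 0.43, 0.36 and -0.31 in that order, all with adjusted p of at most 0.014.

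Among the repeat-like predicted genes the difference was -2.57 for Gm10717, -2.03 for Gm10718, -2.53 for Gm10719, -2.11 for Gm10722, -2.30 for Gm10800, -2.40 for Gm10801, -2.29 for Gm11168, -2.39 for Gm21738 and -2.53 for Gm26870. Gm10800 had 40.6, 34.8 and 23.2 CPM at 0.1 µM melatonin alone, 61.7, 243 and 207 at 1 µM, 235, 239 and 258 at 10 µM and 1798, 1875 and 1887 at 100 µM. These genes share sequence, so they are not separate observations.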

How the results depend on the processing

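The number of genes with a slope under LPS, 3 in the 36-library fit, moved with most settings tried. It was 49 with no low-count filter, 26 without the 2 libraries that stood apart, 63 when replicate 3 of LPS with 1 mM was also left out, 31 with limma-voom, 31 with DESeq2, 91 in the 12 libraries alone, 44 there with dose as a numeric term, and 7 on linear dose. It was 10 without 0.1 µM, 6 without 1 µM, 0 without 10 µM and 7 without 100 µM, and 0 to 7 leaving out 1 library: 0 without replicate 1 of 100 µM or replicate 2 of 0.1 µM, 1 without replicate 3 of 100 µM, and 7 without replicate 1 of 1 µM. The 91 genes of the 12-library fit became 155 with DESeq2, 53 without 100 µM, 44 with numeric dose and 57 to 92 leaving out 1 library (57 without replicate 2 of 100 µM). The joint test called 80 with no filter, 38 without the 2 libraries, 44 with limma-voom, 61 with DESeq2, 125 in the 12 libraries and 15 to 23 leaving out 1. The step at 1 mM called 667 genes without the 2 libraries and 264 to 573 leaving out 1 (264 and 277 without replicates 1 and 2 of LPS with 100 µM). The slope without LPS called 214 with no filter, 397 without the 2 libraries, 360 with DESeq2, 20 without 0.1 µM, 80 without 10 µM, 54 without 100 µM, and 50 to 319 leaving out 1 (319 without replicate 1 of 1 µM; 65, 80 and 72 without replicates 1 to 3 of 100 µM; 74 and 50 without replicates 1 and 3 of 0.1 µM). The difference by LPS called 45, 56 and 39 genes with no filter, without the 2 libraries and with DESeq2, 38 in the compared groups alone and 12 to 44 leaving out 1 (44 without replicate 1 of 1 µM alone). The cause of these changes was not tested. The slope of the LPS response score was -2.83 to -2.36, and that of the 1 mM profile score 3.30 to 4.46, leaving out 1 library; the latter was 0.515 without 100 µM. Slopes reversed without 0.1 µM for Gm29216 (-0.16 in both fits) and, in the 12-library fit, Gm6640 (-0.068), Nudc (-0.00692), Lars2 (0.40) and CT010467.1 (0.43), and without 100 µM for Csf3 (0.075), Gm10717 (0.020) and Gm21738 (0.058). Without 100 µM the median slope reversed for the genes higher at 1 mM (-0.00481) and the interferon list (0.058), and was 0 for the histone and RNA quality list. Replicate numbers did not pair the libraries (18 same-numbered pairs, correlations -0.078 to 0.059; 4 of 12 libraries correlated best with their own number); with a replicate block 2 genes passed in the 36-library fit, without Cenpf (adjusted p = 0.072), and 84 in the 12-library fit. Genes under 10 CPM had a median 95% half-width of 0.91 for the slope, so small slopes were not detectable there.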
